A study of Mus musculus with 4 samples.

Results

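The genes described here encode the subunits of voltage-gated calcium and sodium channels, measured in the dentate gyrus of mice 4 h after electroconvulsive stimulation (ECS). They were taken by symbol from the deposited list of transcripts: every gene named Cacna, Cacnb1 to Cacnb4, or Scn followed by a number and a or b, with at least 1 probeset on the array. This gave 31 of the 18010 genes measured, namely 18 calcium channel and 13 sodium channel genes, with 51 transcripts and 1013 probesets (short stretches of a transcript, mostly within an exon, each read by a few probes). The rule reads symbols and the number of probesets, and the transcript kept for a gene is the one with the highest level. Scn2a is listed in the files under its older symbol Scn2a1 and so falls outside this rule, and its values are given once beside its relatives.

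All 4 arrays came from wild-type C57/Black6 male mice aged 8 wk, and the dentate gyrus had been microdissected from whole hippocampus. The 2 ECS arrays hold RNA from mice that had received a 1.0 s train of 0.3 ms pulses of 18 mA at 100 Hz, a stimulus that provokes a seizure, 4 h earlier. The 2 sham arrays hold RNA taken 4 h after a sham procedure. Arrays of a group are labelled as biological replicates; the number of animals behind each is not stated, so p-values measure the spread between these arrays, and the number of arrays limits the precision.

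A voltage-gated calcium channel is built around a pore-forming alpha1 subunit, which comes in the high-voltage families CaV1 (L-type) and CaV2 (P/Q-, N- and R-type) and the low-voltage family CaV3 (T-type). CaV1 and CaV2 pores are joined by an intracellular beta subunit, which carries the pore to the membrane and sets how it opens and inactivates, and by an extracellular alpha2delta subunit, which raises surface density. Voltage-gated sodium channels have a single large alpha pore and beta subunits with an immunoglobulin-like domain that tune gating and bind adhesion molecules. In dentate granule cells, sodium channels of the axon initial segment set the threshold of the action potential, while calcium channels drive transmitter release, shape firing and carry activity signals to the nucleus.

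Among the members, the sodium channel pore gene Scn9a was lower after ECS by the test, and the beta subunit genes of calcium channels had differences of both signs. The region of 250 bases before the annotated start of these genes is therefore shown, read from RefSeq on build GRCm38.p6, 5′ to 3′ on the strand of the gene. Capitals mark matches on either strand to the cAMP response element core TGACG, the AP-1 motif TGANTCA or the GC box GGGCGG; overlapping matches run together. The Scn9a region is chr2:66634963-66635212 (minus strand) and the Cacnb1 region chr11:98022628-98022877 (minus strand). The Cacnb2 region is chr2:14604056-14604305 (plus strand) and the Cacnb4 region chr2:52676144-52676393 (minus strand). Where RefSeq gives several starts, the one farthest upstream is shown.
Scn9a: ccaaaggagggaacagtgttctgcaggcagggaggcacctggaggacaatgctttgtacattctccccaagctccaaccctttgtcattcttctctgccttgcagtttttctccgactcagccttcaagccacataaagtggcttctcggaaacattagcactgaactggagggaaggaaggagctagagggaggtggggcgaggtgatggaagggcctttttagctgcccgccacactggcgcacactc
Cacnb1: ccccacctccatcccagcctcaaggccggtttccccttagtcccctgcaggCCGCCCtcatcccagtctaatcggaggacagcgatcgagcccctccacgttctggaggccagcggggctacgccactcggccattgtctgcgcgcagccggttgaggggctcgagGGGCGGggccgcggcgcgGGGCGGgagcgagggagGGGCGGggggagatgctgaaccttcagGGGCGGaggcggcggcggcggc
Cacnb2: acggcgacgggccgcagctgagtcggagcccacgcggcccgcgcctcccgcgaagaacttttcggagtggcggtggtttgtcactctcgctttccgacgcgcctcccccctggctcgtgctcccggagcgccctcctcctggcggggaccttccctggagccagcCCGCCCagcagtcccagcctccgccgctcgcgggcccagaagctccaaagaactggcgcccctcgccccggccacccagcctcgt
Cacnb4: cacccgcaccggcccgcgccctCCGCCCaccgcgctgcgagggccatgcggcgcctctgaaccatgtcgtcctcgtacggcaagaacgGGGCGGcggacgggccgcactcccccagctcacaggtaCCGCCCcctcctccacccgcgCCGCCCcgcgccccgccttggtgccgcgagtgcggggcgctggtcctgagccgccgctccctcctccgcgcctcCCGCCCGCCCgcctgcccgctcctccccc

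The Scn9a region holds none of the 3 motifs, the Cacnb1 region holds 5 GC boxes, the Cacnb2 region 1 and the Cacnb4 region 6. The regions of the other starts of Cacnb1 and Cacnb4 hold none of the 3 motifs. That of the other Cacnb2 start (chr2:14823842-14824091) holds 1 cAMP response element core and 0 GC boxes. RefSeq regions were found for 23 of the 31 members, 32 regions in all, since 7 members had several. The GC box was present in 13 of the 32 (40.6%) against 32.7% of 32851 regions of all genes. The cAMP response element core was present in 6 (18.8%) against 17.8%, and AP-1 in 0 against 6.7%. These are matches of letters within 250 bases and say nothing of binding.

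Values are log2 expression per gene, the mean over the probesets of its most highly expressed transcript row after the authors' RMA (robust multi-array average) processing. Over all genes the median log2 value per array lay between 7.20 and 7.35, and the median difference, ECS minus sham, was -0.04. Of 8 genes known to be regulated by neuronal activity, 6 (Arc, Nptx2, Homer1, Inhba, Gadd45b and Ptgs2) rose and Fosb and Bdnf missed the threshold. All 9 markers of granule cells were measured, and their summed linear level was 6.11e+03 and 6.49e+03 on the sham arrays and 5.18e+03 and 5.42e+03 on the ECS arrays; 3 of them (Tdo2, Dsp and Gabrd) fell. Of the others, none of which passed the test, Calb1 (-0.52) and Stxbp6 (-0.28) had both ECS arrays below both sham arrays, Prox1 (0.22) and Npnt (0.06) had both above, and C1ql2 (-0.08) and Dock10 (0.00) overlapped. In tissue samples such as these, fewer cells of a type and less RNA per cell cannot be told apart. The summed levels of 6 pyramidal neuron markers were 2.77e+03 and 2.51e+03 in sham and 2.04e+03 and 2.33e+03 after ECS. Those of 8 interneuron and mossy cell markers ran from 5.26e+03 to 5.60e+03 over all arrays, and those of 8 astrocyte markers from 1.39e+04 to 1.43e+04. The 8 oligodendrocyte lineage markers summed to 9.66e+03 on ECS A and to 6.86e+03 to 7.58e+03 on the other arrays. The 7 microglia markers ran from 1.06e+03 to 1.18e+03 and the 7 endothelial and mural markers from 1.53e+03 to 1.90e+03. Of the latter, Slco1a4 (-0.55) and Tek (-0.49) had both ECS arrays below both sham arrays (adjusted p = 0.170 for each, limma). The rest, Pecam1 (0.04), Acta2 (0.04), Flt1 (-0.02), Pdgfrb (-0.02) and Rgs5 (-0.06), overlapped. The 12 markers of meninges, choroid plexus and ependyma summed to 4.33e+03 on sham B and to 2.09e+03 to 2.96e+03 on the other arrays, and the 5 blood markers, of which 3 have values of their own, had both ECS arrays above both sham arrays without passing the test. No measured marker was listed at 0. The part of these shifts in the results on channels was not tested.

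Of the 31 channel genes, 1 fell and 0 rose at an adjusted p under 0.05 (limma, Benjamini-Hochberg over 18010 genes), where 0.194% of all genes fell and 0.5% rose. At an unadjusted p under 0.05, 10 members (32.3%) were lower and 3 (9.68%) higher, against 10.5% and 6.39% of all genes. The 10 were Scn9a, Scn3b, Scn7a, Scn3a, Cacna1d, Cacnb4, Scn1a, Scn8a, Cacna1h and Cacna1i, and the 3 were Cacnb2, Cacnb1 and Cacna2d4. With only the probesets listed for 1 gene, the 3 became 2, and Cacna2d4 had a difference of 0.22 in place of 0.23. The 1150 higher genes of all became 1105 of 17389 there. Both ECS arrays lay below both sham arrays for 16 members (51.6%), against 30.7% of all genes, and above them for 5 (16.1%), against 18.7%, so the second share was near that of all genes. The median difference was -0.10 over the members. By channel, it was -0.25 for the 13 sodium channel genes, of which 6 were lower and 0 higher at an unadjusted p under 0.05, and -0.05 for the 18 calcium channel genes, of which 4 were lower and 3 higher. Whether the 2 channel types differ was not tested. Counts at an unadjusted p under 0.05 with an array left out were also smaller over all genes. The 10 lower genes became 6 without sham A and 5 without ECS B, where the 1888 lower genes of all became 1715 and 1075. The 3 higher genes became 1 without either ECS array and 1 without sham B, where the 1150 higher genes of all became 949, 949 and 1122. Without sham A, 11 members lay above the remaining sham array on both ECS arrays, as did 5044 genes of all against 3370 with both sham arrays. Centring each array on its median left 6 lower and 4 higher members, and turned the balance over all genes from 1888 lower and 1150 higher to 1117 and 1921. With trend and robust eBayes Scn3b, Scn3a, Cacna1d and Cacnb4 also passed as lower and Cacnb2 as higher, and without the dimmest 25% of genes Scn3b, Scn3a and Cacna1d did. Over all genes the lower calls grew from 35 to 352 and 216 under these settings, and the higher calls from 90 to 365 and 242.

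**Figure D1:**
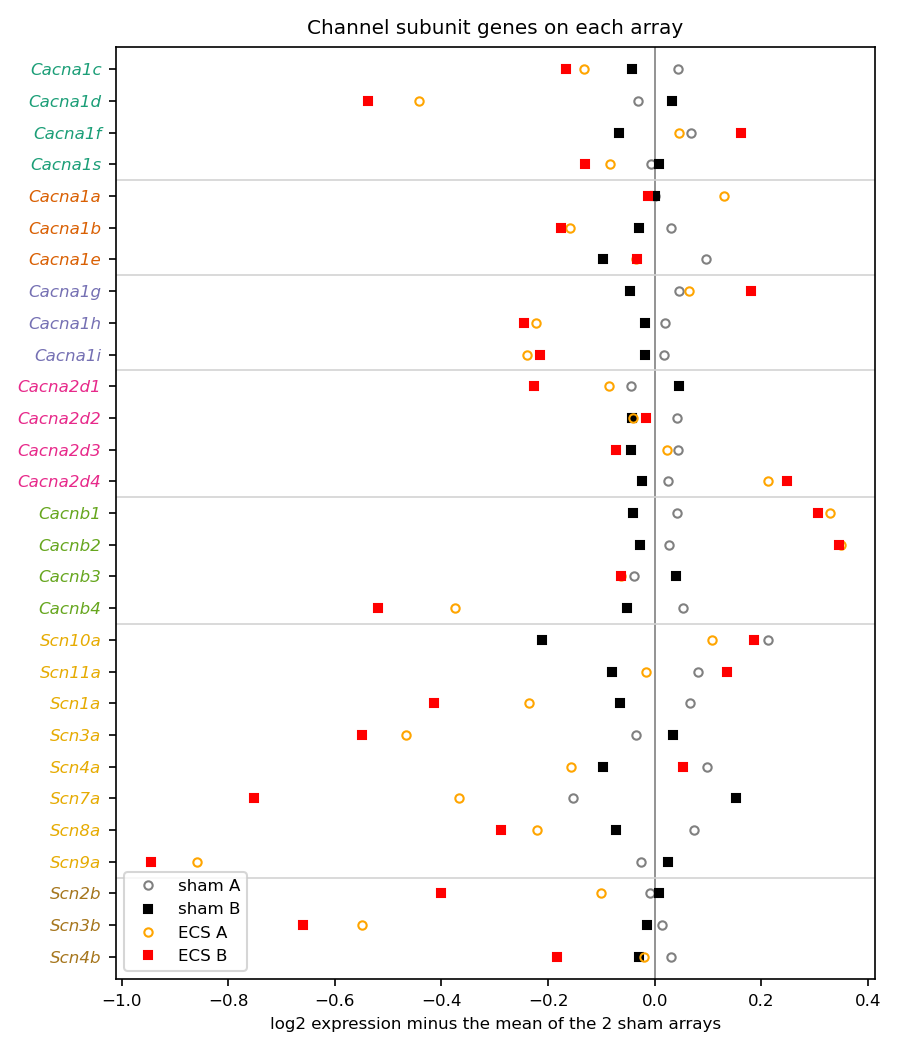
Log2 expression of 29 of the 31 channel genes on the 4 arrays, as the distance from the mean of the 2 sham arrays; open circles are sham A (grey) and ECS A (orange), filled squares sham B (black) and ECS B (red), and grey lines part the subunit groups. Scn9a, Scn3b, Scn3a, Cacna1d and Cacnb4 lie to the left on both ECS arrays, and Cacnb1 and Cacnb2 to the right.

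The alpha subunits of sodium channels form the pore. Scn9a, best known as a pore of pain-sensing peripheral neurons, had log2 values of 5.94 and 5.99 on the sham arrays and 5.11 and 5.02 on the ECS arrays. The groups were far apart relative to their spread (sham 5.96 ± 0.04, ECS 5.06 ± 0.06; SD, n = 2 each), and the gene fell 1.87-fold (log2 difference -0.90 ± 0.09 SE, 95% interval -1.13 to -0.67, adjusted p = 0.0375, limma). It was the member with the smallest p and ranked 66 among all genes. With any array left out the difference stayed between -0.95 and -0.86 and missed the threshold, with an adjusted p of 0.122 without sham A, 0.153 without sham B, 0.121 without ECS A and 0.162 without ECS B. Over all alternatives it ran from 0.0162 to 0.162. Scn9a belongs to the dimmest 25% of genes. Its 29 probesets had differences from -2.51 to 1.34 with a median of -0.79, and 26 of them were lower.

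Scn3a, a pore subunit most abundant in the developing brain, had 9.81 and 9.88 in sham and 9.38 and 9.30 after ECS, with no overlap (-0.51 ± 0.09, adjusted p = 0.102). Each of its 19 probesets was lower. Scn1a, the main pore of fast-spiking interneurons, had 9.96 and 9.83 in sham against 9.66 and 9.48 (-0.32 ± 0.11, adjusted p = 0.243). Both ECS arrays were below both sham arrays, and 26 of 27 probesets were lower. Scn8a, the pore that gathers at axon initial segments and nodes of Ranvier, had 10.29 and 10.15 against 10.00 and 9.93 (-0.25 ± 0.10, adjusted p = 0.292), with 35 of 37 probesets lower. Scn2a, the other main pore of excitatory axons, had 10.42 and 10.49 against 10.28 and 10.21 (-0.21 ± 0.09, adjusted p = 0.333). None of these 4 passed the threshold. Both ECS arrays lay below both sham arrays in each of them, as they did in 30.7% of all genes.

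Scn7a encodes an atypical sodium channel that senses the sodium level of body fluids and is known from glia and ependyma of sensory organs that border the ventricles. Its sham values were 6.45 (A) and 6.76 (B) and its ECS values 6.24 (A) and 5.86 (B), with an SD of 0.22 in sham and 0.27 after ECS (-0.56 ± 0.17, adjusted p = 0.217). It was highest on sham B, the array on which the summed markers of meninges, choroid plexus and ependyma were also highest. Of these markers, Ttr had 10.16 on sham B and 5.90 to 6.55 on the others. Foxj1 ran only from 7.18 to 7.28, and Dcn was highest on ECS B (10.84). On ECS B, where Scn7a was lowest, the sum was 2.96e+03, against 2.09e+03 on sham A and 2.12e+03 on ECS A. The part of meninges, choroid plexus and ependyma in the Scn7a value was not tested. The Scn7a difference was -0.41 without sham B, -0.37 without ECS B, -0.71 without sham A and -0.75 without ECS A, with adjusted p-values from 0.217 to 0.497.

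Some alpha subunits are known chiefly outside the brain, among them Scn4a from skeletal muscle and Scn10a and Scn11a from sensory neurons. Their differences were -0.05 (Scn4a), 0.15 (Scn10a) and 0.06 (Scn11a), and sham and ECS values overlapped in each; the sign of Scn4a turned with median centring. All 3 are among the dimmest 25% of genes.

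Beta subunits of sodium channels tune gating and link the pore to adhesion molecules. Scn3b, which joins its pore without a covalent bond and shifts inactivation, had 11.08 and 11.05 in sham and 10.52 and 10.41 after ECS (1.52-fold lower, -0.60 ± 0.09, adjusted p = 0.0783). Its groups lay well apart and each of its 11 probesets was lower, yet it missed the threshold. Scn2b, which is linked to the pore by a disulfide bond, had 10.00 and 10.01 against 9.90 and 9.60 (-0.25 ± 0.13, adjusted p = 0.383), and most of that difference came from ECS B. Scn4b, linked to resurgent sodium current, had -0.10 with overlapping groups.

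**Figure D2:**
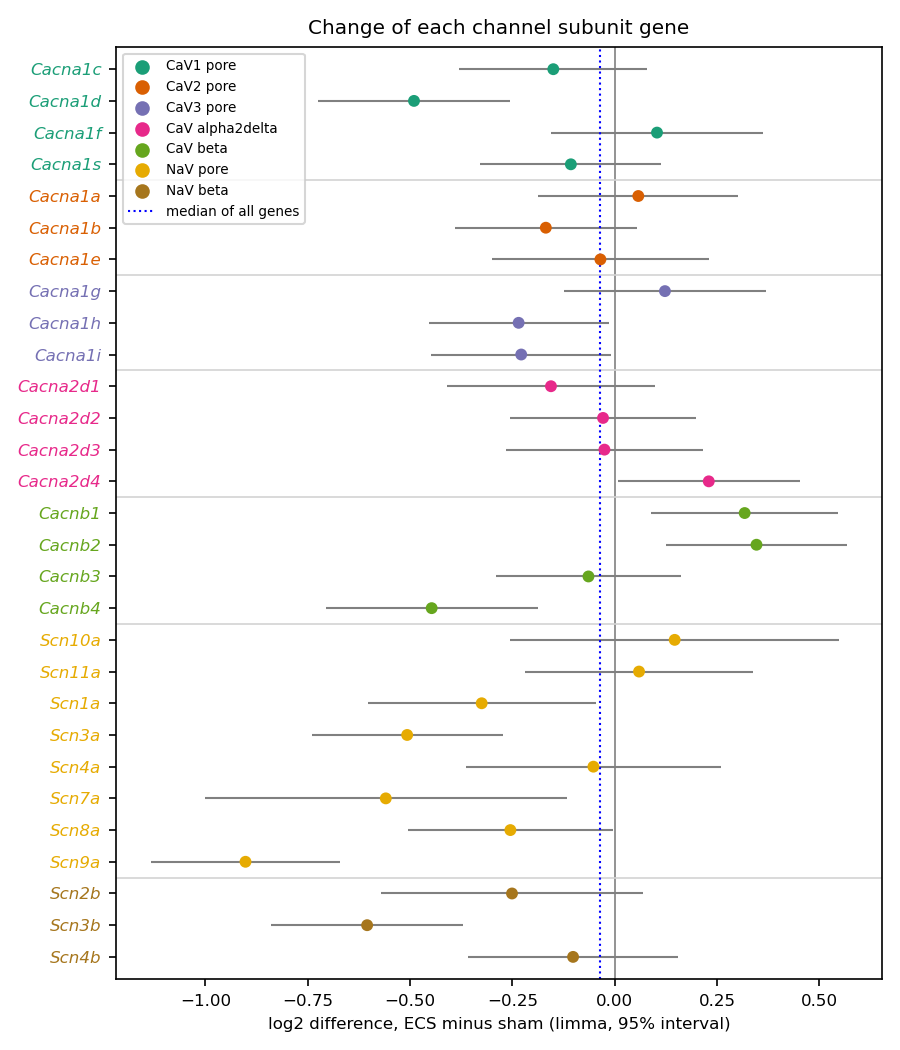
Log2 difference, ECS minus sham, of 29 channel genes, each with its 95% interval from limma; colours give the subunit group and the dotted line the median of all genes (-0.04). The interval of Scn9a (-1.13 to -0.67) is the farthest from 0, those of Cacnb1 and Cacnb2 lie above 0, and that of Cacnb4 lies below.

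Among the L-type (CaV1) pores, Cacna1d had the difference farthest from 0. This pore, which opens at more negative voltages than other L-type pores, had 8.62 and 8.68 in sham and 8.21 and 8.11 after ECS (1.40-fold lower, -0.49 ± 0.09, adjusted p = 0.105). All 55 of its probesets were lower. Cacna1c, the most abundant L-type pore of brain and heart, had 9.75 and 9.66 against 9.57 and 9.54 (-0.15 ± 0.09, adjusted p = 0.458), with 53 of 59 probesets lower. Cacna1s of skeletal muscle (-0.11) and Cacna1f of the retina (0.10) are among the dimmest 25% of genes. The median of the 4 genes was -0.13 and moved to -0.06 with arrays centred on their medians.

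The CaV2 pores, which trigger transmitter release at synapses, had differences from -0.17 to 0.06. Cacna1b, the N-type pore, had 9.48 and 9.42 in sham and 9.29 and 9.27 after ECS (-0.17 ± 0.09, adjusted p = 0.398), with 48 of 57 probesets lower. Cacna1a, the P/Q-type pore, had 9.34 on both sham arrays and 9.47 and 9.33 after ECS (0.06 ± 0.10), and the R-type pore Cacna1e had 10.54 and 10.35 against 10.41 on both (-0.03 ± 0.10, with the opposite sign under median centring). The 95% intervals were -0.19 to 0.30 for Cacna1a and -0.30 to 0.23 for Cacna1e.

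Of the T-type (CaV3) pores, which open near the resting potential and support burst firing, Cacna1h and Cacna1i had similar values. Cacna1h had 9.22 and 9.19 in sham and 8.98 and 8.96 after ECS (-0.23 ± 0.09, adjusted p = 0.275). Cacna1i had 8.62 and 8.59 against 8.37 and 8.39 (-0.23 ± 0.09, adjusted p = 0.287). In both genes the SD within a group was at most 0.03, and 39 of 41 and 36 of 41 probesets were lower. Cacna1g had 7.61 and 7.52 against 7.63 and 7.75 (0.12 ± 0.10, adjusted p = 0.573), with 33 of 44 probesets higher. None of the 3 passed the threshold.

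The alpha2delta subunits, of which Cacna2d1 and Cacna2d2 bind gabapentin, had a median difference of -0.03, which turned to 0.05 with median centring and 0.03 with cyclic loess. Cacna2d1 had 10.20 and 10.29 in sham and 10.16 and 10.02 after ECS (-0.16 ± 0.10, adjusted p = 0.485), with 37 of 42 probesets lower. Cacna2d2 (-0.03) and Cacna2d3 (-0.02) had overlapping groups, and their signs turned with median centring and cyclic loess. Cacna2d4, known from the retina, had 6.03 and 5.98 against 6.22 and 6.25 (0.23 ± 0.09, adjusted p = 0.288), and 28 of the 38 probesets listed for it alone were higher. A further 9 of its 47 probesets are also listed for Lrtm2, as are 8 of the 45 of Cacna2d3 for Lrtm1, and signal of the overlapping genes cannot be told apart there.

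The beta subunits of calcium channels differed in sign. Cacnb4, the beta subunit whose loss gives the ataxic and epileptic lethargic mouse, had 10.61 and 10.50 in sham and 10.18 and 10.04 after ECS (1.36-fold lower, -0.45 ± 0.10, adjusted p = 0.144). Cacnb2, which slows channel inactivation and is best known from heart, had 10.06 and 10.00 in sham and 10.38 on both ECS arrays (1.27-fold higher, 0.35 ± 0.09, adjusted p = 0.168). Cacnb1, first known from skeletal muscle and also made in brain, had 9.81 and 9.73 against 10.10 and 10.07 (1.25-fold higher, 0.32 ± 0.09, adjusted p = 0.193). None of the 3 passed the threshold. Sham and ECS values did not overlap in any of them, which also held for 30.7% of all genes as lower and 18.7% as higher. Cacnb3, a neuronal beta subunit, had 9.79 and 9.87 against 9.77 on both ECS arrays (-0.06 ± 0.09, adjusted p = 0.763, with the opposite sign under median centring).

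Within an array, Cacnb2 minus Cacnb4 was -0.55 and -0.50 in sham and 0.20 and 0.34 after ECS, a shift of 0.79 on the log2 scale. Cacnb1 minus Cacnb4 shifted by 0.76, from -0.80 and -0.78 to -0.09 and 0.04. Levels of different probesets cannot be set against each other, so these ratios show only that the genes differed unequally between the groups. They are free of any factor that scales a whole array. Both pairs were formed after the values were seen and carry no test.

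The transcripts of Cacnb1 and Cacnb4 gave more than 1 distinct value. For Cacnb4 the row with 13 probesets had -0.45 and the row with 15 had -0.35. For Cacnb1 the row with 11 probesets had 0.32 and the row with 14 had 0.28. The other members with more than 1 row were Cacna1b (-0.17 in both rows), Cacna1c (-0.15 and -0.13) and Cacna1d (-0.49 and -0.46), so the choice of row changed no sign.

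Single probesets show how evenly a difference runs along a transcript. Of the 988 probesets listed for a member alone, 68.3% had a lower mean after ECS, against 56.4% of 225236 probesets of all genes, with medians of -0.12 and -0.04. Among the 29 members with at least 10 probesets, every probeset was lower in 3 (Cacna1d, Scn3a and Scn3b; 10.3%), against 5.06% of 9201 such genes, and every probeset higher in 1 (Cacnb2; 3.45%), against 3.53%. Probesets of a gene share the gene's RNA and the 4 arrays and are no replicates. Tested one by one, 0 of the 988 passed (limma, lowest adjusted p = 0.383). The same fit called 0 of the 225236 probesets of all genes, so this is not particular to the members. At an unadjusted p under 0.05, 99 (10%) were lower and 31 (3.14%) higher, against 5.95% and 4.27% of all probesets.

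**Figure D3:**
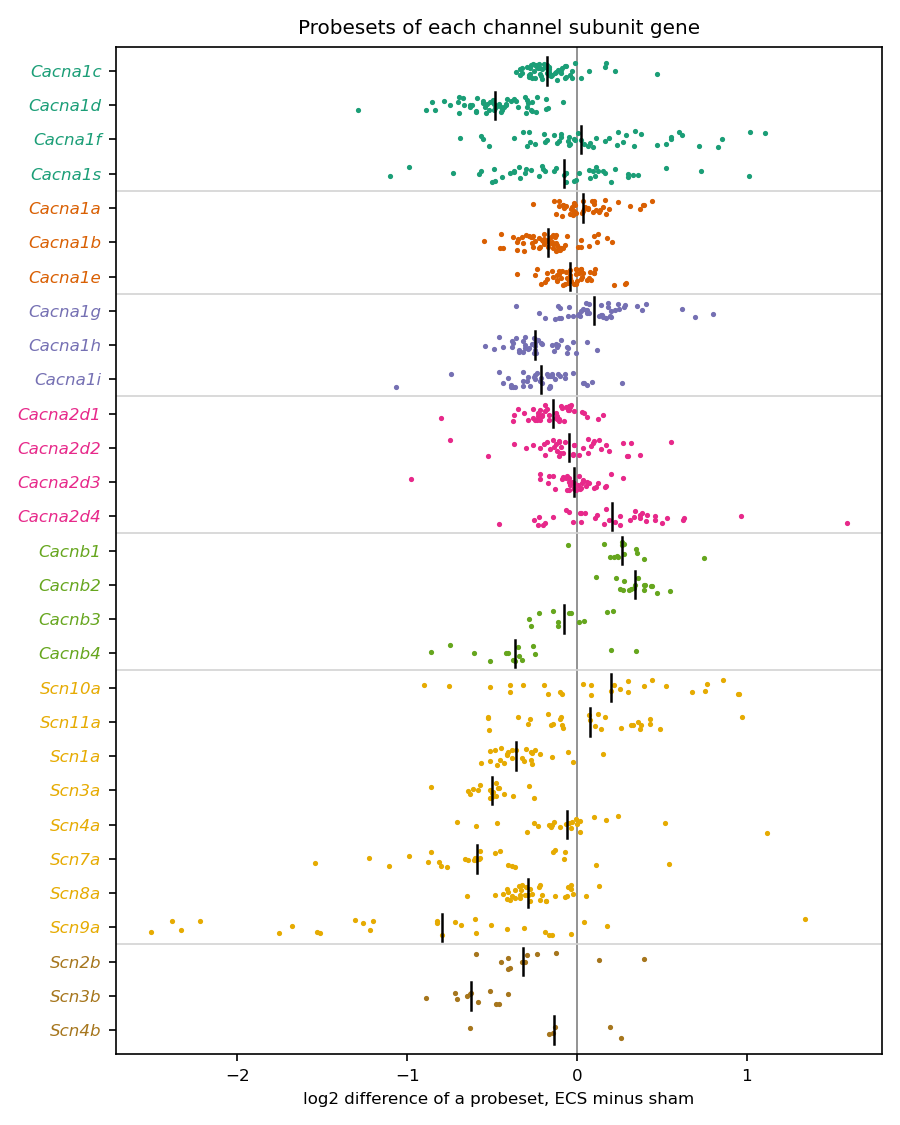
Log2 difference, ECS minus sham, of the probesets listed for a single gene, for 29 channel genes; each dot is a probeset, spread vertically for sight, and the black tick is the gene's median. The dots of Cacna1d, Scn3a and Scn3b all lie below 0 and those of Cacnb2 all above, while Scn9a spans -2.51 to 1.34.

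A probeset that departs from the rest of its gene can mark an exon used differently. By limma's diffSplice, 3 of the 988 member probesets (0.304%) departed at an adjusted p under 0.05, near the 0.324% of 224792 probesets of all genes. In Scn9a, probeset 4333221 had 1.98 and 2.16 in sham and 3.36 and 3.47 after ECS, a difference of 1.34 against a mean of -0.98 for the others (adjusted p = 0.00150). In Cacna1i, probeset 4748223 had 5.10 and 5.74 against 4.48 and 4.23, a difference of -1.07 against -0.21 (adjusted p = 0.0252). In Cacna1c, probeset 4766339 had 7.49 and 7.52 against 7.94 and 8.01, a difference of 0.47 against -0.16 (adjusted p = 0.0182). The groups did not overlap in any of them, and the share of all probesets without overlap is not given here.

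This test takes the spread to be equal across the probesets of a gene. With a spread of its own for each probeset, an alternative chosen after seeing the data, 0 of 224792 probesets passed, 0 of them in the members (lowest adjusted p = 0.840). At an unadjusted p under 0.05 that fit had 49 of 988 member probesets (4.96%) against 5.66% of all. It called no probeset of any gene, so its 0 calls are not particular to the members. The count of 3 member probesets became 1 without the dimmest 25% of probesets, among which the Scn9a and Cacna1i probesets lie. The count over all probesets at that setting is not given here, so the shift cannot be called particular to the members. The Scn9a call was lost without ECS B (adjusted p = 0.0688), the Cacna1i call without sham B (0.947, with a difference from the rest of the gene of -0.51 in place of -0.86) and without ECS B (0.378). The Cacna1c call was lost with any 1 array left out (0.0704 to 0.322) and with median centring (0.0546). Positions of these probesets along the genes were not used here.

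Other genes of the same pathways were taken from 3 lists. Among 25 measured calcium channel gamma subunits and regulators, 0 passed the test and the median was -0.01. At an unadjusted p under 0.05, 4 were lower and 2 higher, against 10.5% and 6.39% of all genes. The extremes were Rimbp2, which ties calcium channels to the release site (0.45, adjusted p = 0.113), the channel-inhibiting GTPase gene Rem2 (0.40, 0.160), the scaffold gene Akap5, which holds kinase and phosphatase at L-type channels (-0.36, 0.157), and the ubiquitin ligase gene Nedd4 (-0.33, 0.203). Akap5 had 9.66 and 9.67 in sham and 9.34 and 9.28 after ECS.

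Among 19 sodium channel partners and members of the leak channel complex, 0 passed and the median was -0.11. At an unadjusted p under 0.05, 3 were lower and 1 higher, against 10.5% and 6.39% of all genes. Nalcn, the sodium leak pore, had 9.80 and 9.81 in sham and 9.54 and 9.39 after ECS (-0.34, adjusted p = 0.200). Fgf14, an intracellular factor that binds sodium channels at the axon initial segment, had -0.32 (0.209). Ank3, the ankyrin that anchors sodium channels at the axon initial segment, had 0.21 (0.333).

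Among 25 genes of intracellular calcium release, calcium pumps and exchangers, 0 passed and the median was -0.10. At an unadjusted p under 0.05, 4 were lower and 2 higher, against 10.5% and 6.39% of all genes. Both of the higher genes lay far from the rest. Slc24a4, a potassium-dependent sodium/calcium exchanger, had 9.63 and 9.46 in sham and 10.21 and 10.31 after ECS (0.72 ± 0.11, adjusted p = 0.0725), and Orai1, the pore of store-operated calcium entry, had 6.44 and 6.51 against 7.05 and 7.08 (0.59 ± 0.09, adjusted p = 0.0772). Itpr1, the inositol trisphosphate receptor of calcium stores, had -0.38 (0.213) and the plasma membrane pump gene Atp2b4 -0.32 (0.245).

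**Figure D4:**
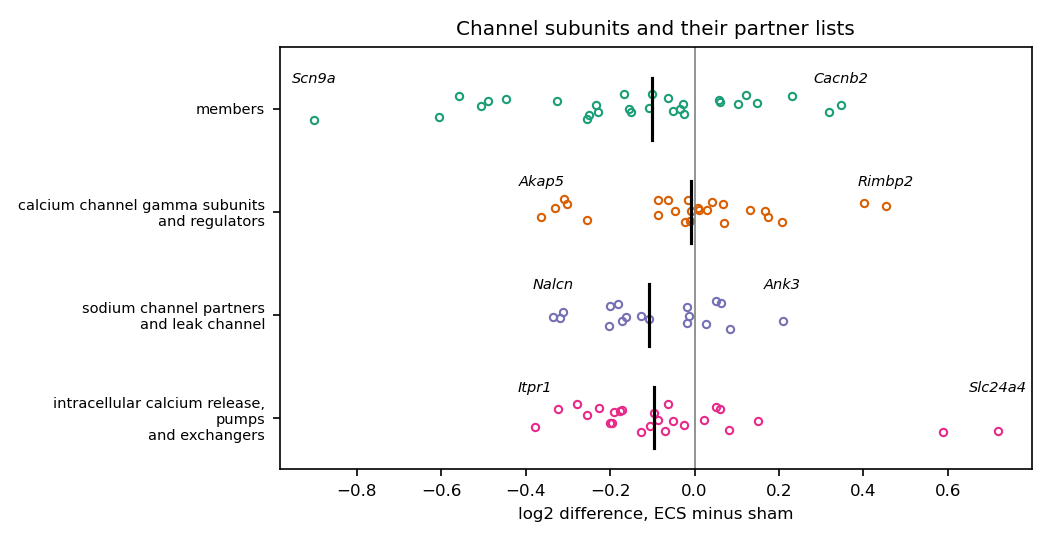
Log2 difference, ECS minus sham, of 29 of the 31 channel genes and of 3 partner lists (25, 18 and 25 genes shown); each circle is a gene, the black tick is the median over all measured genes of the list and the outermost genes are named. The channel genes reach from -0.90 (Scn9a) to 0.35 (Cacnb2) with a median of -0.10, and Slc24a4 at 0.72 is the highest value shown.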

How the data were processed

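Per the submitters' processing notes, array signals were processed with RMA (background correction, quantile normalization, probe summary) in oligo; versions and genome build are not given in the sources used here. The authors deposited log2 values per RefSeq transcript, log2 values of single probesets, and a list of the probesets of each transcript. In 22256 of 22256 rows with 1 listing, a transcript's deposited log2 value equalled the mean of its probesets on a single array within 1e-06; by this match sham A and ECS A are the labels' replicate 1, and sham B and ECS B replicate 2. Rows with no probeset (3621 of 26106, listed at 0) were left out. Symbols came from the RefSeq gene table of GRCm38.p6 (24928 of 25635 identifiers matched), and of several rows of a gene the one with the highest mean was used, except that the member rule read the file's own symbols.

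ECS was compared with sham by limma 3.58.1 in R 4.3.3 (lmFit, eBayes, two-sided, Benjamini-Hochberg over 18010 genes, threshold 0.05; 2 residual and 3.23 prior degrees of freedom), with no block. Adjusted p-values of genes and probesets come from limma, and exon use from its diffSplice. The fits were tested on simulated data. Members and gene lists were chosen with earlier results of these data known. Members were named with their values, except some genes that are counted in totals but not reported here; of each partner list the 2 highest and 2 lowest differences were named. Alternatives were each array left out, other scalings, filters, thresholds and row choices, and a replicate block. Promoter sequences are RefSeq's.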

Additional observations from a re-analysis of the deposited data

How the results depend on the processing

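With 2 arrays in each group, the SE of a member's log2 difference lay between 0.09 and 0.17. Of the results for single members under each alternative, 397 kept their sign and side of the threshold, 9 gained the threshold, 5 lost it and 18 reversed. The causes of these shifts were not tested.

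The 1 lower member was not called with any array left out. Those fits leave 1 array in a group, and nearly all calls over all genes were lost in them too. The count of lower members became 3 without the dimmest 25% of genes (Cacna1d, Scn3a and Scn3b), where Scn9a was removed. It became 5 with trend and robust eBayes, where 1 member (Cacnb2) was also called higher, and 2 at an adjusted p under 0.10. Lower calls over all genes went from 35 to 216, 352 and 180 under these 3 settings. The adjusted p of Scn9a ran from 0.0162 to 0.162. The 10 members lower at an unadjusted p under 0.05 became 5 to 8 with an array left out and 6 with median centring; the 3 higher became 1 to 3, and the 5 members above both sham arrays 5 to 11. Partner genes called were 3 of the calcium regulators and 1 of the sodium partners with trend and robust eBayes, and, of the intracellular calcium genes, 2 under that fit, 2 without the dimmest 25% of genes and 2 at an adjusted p under 0.10.

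Medians moved as follows. CaV1 was -0.056 with median centring and -0.32 without the dimmest 25% of genes. CaV2 ran from -0.13 to 0.058 with an array left out. CaV3 was -0.19 with quantile normalization, -0.16 with median centring and -0.18 with cyclic loess. Alpha2delta was 0.046 with median centring and 0.032 with cyclic loess, CaV beta 0.20 with median centring, and NaV beta -0.29 to -0.060 with an array left out. Median centring changed the balance of all genes without overlap from 3370 higher and 5536 lower to 5193 and 3650, and calls from 90 and 35 to 80 and 18.

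Reversals concerned members whose difference was smaller in size than its SE, the largest being Scn10a (0.15 ± 0.16). With an array left out, Cacna1e ran from -0.13 to 0.062, Cacna2d2 from -0.070 to 0.0135, Cacna2d3 from -0.073 to 0.0235, Scn4a from -0.16 to 0.053, Scn10a from -0.0650 to 0.36, Scn11a from -0.021 to 0.14 and Cacna1a from -0.013 to 0.13. Median centring gave Cacna1e 0.037, Cacna2d2 0.044, Cacna2d3 0.047, Cacnb3 0.0082 and Scn4a 0.020. Quantile normalization gave Cacna2d2 0.043, and cyclic loess Cacna2d2 0.049 and Cacna2d3 0.0152.

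The 3 member probesets called for exon use became 2 with median centring, 1 without the dimmest 25% of probesets and 0 with a variance for each probeset. Counts over all probesets with median centring and without the dimmest 25% are not given here. Same-numbered arrays of the groups did not deviate together (r = -0.20 across 18010 genes, which are not independent), so the numbers were not taken as pairs; with the replicate block 0 members (Scn9a adjusted p = 0.112) and 1 probeset were called, and 26 genes rose and 6 fell. With the crossed replicate block, added after seeing the data, 1 member and 7 member probesets were called, and 106 genes rose and 48 fell. Counts over all probesets with either block are not given here.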
